A study of Mus musculus with 17 samples.

Results

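Ly6c2, Ly6e, Clec5a, Plac8 and Vcan are 5 genes that are commonly listed as markers of classical monocytes, the LY6C-high blood cells that enter inflamed tissue and can become macrophages there. Their levels were read in sorted macrophages of mouse liver, in lean and obese animals, and of obese fat. The genes were found by symbol among the 40548 genes of the deposited count table. Each symbol occurred in a single entry, so no measured value decided which entry was taken. The 5 genes were, however, chosen by name with the levels and group differences of these same libraries already known, so counts of how many of them passed a test are descriptions and support nothing further. All 5 passed the filter on low counts, as did 15285 genes in all.

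The 17 libraries form 4 groups, all from C57BL/6 animals of the Cx3Cr1-GFP/WT line, whose green fluorescent protein reports activity of the chemokine receptor gene Cx3cr1. ATM HFD is a group of 5 libraries of macrophages from adipose tissue, gated by F4/80 with CD64, of mice fed a high fat, high sucrose diet (HFD). Cx3cr1pos HFD holds 4 libraries of liver macrophages with GFP signal on that diet. HFD KC holds 5 libraries of liver cells with high F4/80 and with TIM4, the profile of Kupffer cells (KC), on the same diet. STD KC holds 3 libraries of that TIM4-positive gate from mice on standard chow (STD). Both diets lasted 16 weeks. The GFP allele is shared by all 4 groups, and no group was sorted as blood monocytes. The labels do not say whether a library held 1 animal or several, so p-values measure the spread between these libraries, which may be partly technical.

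Classical monocytes leave the bone marrow through the receptor CCR2, carry LY6C on their surface and, in liver or fat, lose monocyte genes as they take on the program of a resident macrophage. LY6C and LY6E belong to the LY6 family of small surface proteins held by a glycosylphosphatidylinositol anchor. CLEC5A is a lectin receptor that signals through the adaptor DAP12, PLAC8 is a small cysteine-rich intracellular protein, and versican, the product of Vcan, is a large secreted proteoglycan that binds hyaluronan. In a bulk library, fewer cells of a type and less RNA per cell cannot be told apart.

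Library totals lay between 25644835 and 38207943 counts, and levels are given on the counts-per-million scale (CPM), for which each library total was multiplied by its TMM factor. Of the sort genes, Timd4 and Cx3cr1 followed the gates. Timd4, which encodes TIM4, reached 402 to 1655 CPM in the KC groups and at most 42.9 CPM in Cx3cr1pos HFD and ATM HFD, and it was lowest of the KC libraries in HFD KC hfd2. Cx3cr1 lay at 303 to 454 CPM in Cx3cr1pos HFD and at most 29.1 CPM elsewhere. Libraries are called by the names in their titles (hf1, hfd2, std3). What the prefixes hf and hfd stand for is not given in the labels. Within HFD KC they coincide with the sort labels CD68 and frac_neg, so name and sort label cannot be told apart there. All STD KC and ATM HFD libraries are labelled frac_neg, and all Cx3cr1pos HFD libraries frac_pos. Tissue and sort label therefore cannot be told apart between ATM HFD and Cx3cr1pos HFD. The label CD68 occurs only in HFD KC, so HFD KC against STD KC partly mixes the diet with the sort label.

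The 5 genes did not move as one group. Ly6e and Plac8 were abundant in every liver group and low in ATM HFD. Clec5a was highest in Cx3cr1pos HFD, next in ATM HFD and lowest in STD KC. Ly6c2 and Vcan were scarce everywhere. Per kilobase of exon, with GENCODE M21 gene models, Ly6e averaged 41.4 CPM per kb in ATM HFD, 970 in Cx3cr1pos HFD, 1020 in HFD KC and 1291 in STD KC. On the same per-length scale Plac8 stood at 3.35, 42.3, 51.8 and 61.1, and Clec5a at 5.69, 12.3, 2.42 and 1.05, in that order of groups. Ly6c2 stayed at or below 1.98 CPM per kb and Vcan at or below 0.159 in every group mean. The name classical monocyte genes therefore describes where they are known from, not a pattern they share here, and they are called by their symbols below.

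**Figure D1:**
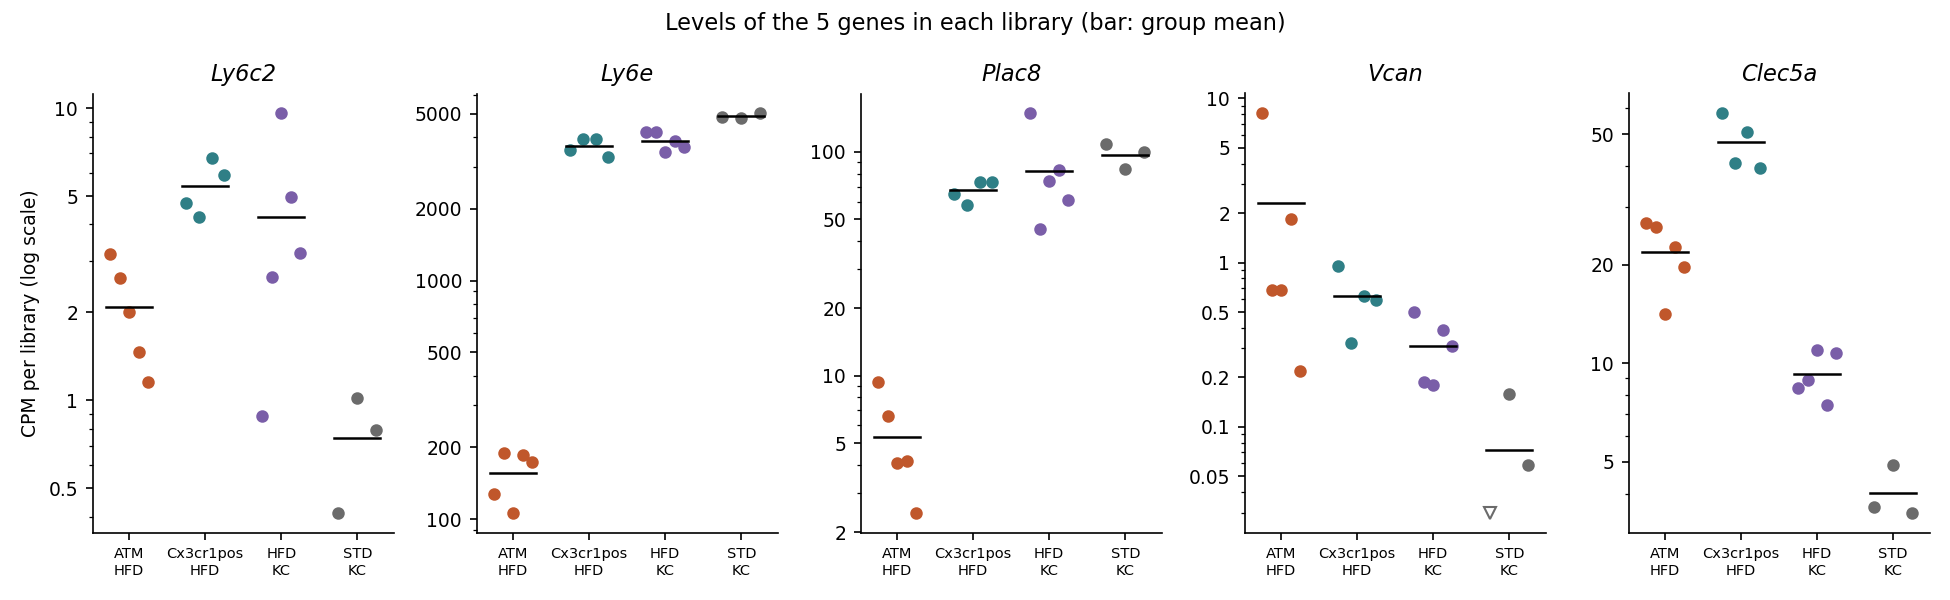
Level of each of the 5 genes in each library, in CPM on log axes that differ between panels, with 1 point per library and a bar at the group mean; the open triangle marks the STD KC library without a Vcan count. Ly6e and Plac8 were lower in all 5 ATM HFD libraries than in any liver library, whereas Clec5a was highest in the 4 Cx3cr1pos HFD libraries.

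Ly6c2 (ENSMUSG00000022584) encodes the antigen by which classical monocytes are sorted in mice. It was counted at 1.16 CPM in ATM HFD hfd2, 1.46 in hfd1, 2.01 in hf3, 2.62 in hf2 and 3.17 in hf1. In Cx3cr1pos HFD it stood at 4.24 CPM in hf2, 4.74 in hf1, 5.93 in hfd2 and 6.75 in hf3. In HFD KC it stood at 0.885 CPM in hf1, 2.63 in hf2, 3.18 in hfd2, 4.98 in hfd1 and 9.60 in hf3, against 0.412, 0.793 and 1.02 CPM in STD KC std1, std3 and std2. HFD KC spread the most, with the highest library 10.8 times the lowest, and its lowest library lay within the range of STD KC. The 5 ATM HFD libraries lay below the 4 Cx3cr1pos HFD libraries and above the 3 STD KC libraries. The counts behind these values ran from 13 to 375 per library, so counting error is not negligible at the low end.

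The order of the Ly6c2 group means was Cx3cr1pos HFD, HFD KC, ATM HFD and STD KC. Ly6c2 was higher in HFD KC than in STD KC by a log2 fold change of 2.52 ± 0.60 (SE; adjusted p = 0.0274, edgeR quasi-likelihood test). It was lower in ATM HFD than in Cx3cr1pos HFD, at -1.37 ± 0.48 (adjusted p = 0.0309). The neighbours Cx3cr1pos HFD and HFD KC did not differ beyond their spread (0.35 ± 0.47, 95% interval -0.66 to 1.35, adjusted p = 0.690), nor did ATM HFD and HFD KC (-1.03 ± 0.46, adjusted p = 0.0731). Both reporter-positive and adipose macrophages were higher than STD KC, at 2.86 ± 0.62 (adjusted p = 0.00300) and 1.49 ± 0.58 (adjusted p = 0.0429), contrasts that mix the diet with the gate or the tissue. Several Ly6c2 calls rested on single libraries. That of HFD KC over STD KC was lost without std1 (adjusted p = 0.130), std2 (0.105) or std3 (0.130), with only those groups in the fit (0.103) and with the HFD libraries named hf alone (0.0784), and was kept with those named hfd alone (2.46, adjusted p = 0.0191). That of ATM HFD below Cx3cr1pos HFD was lost without any of Cx3cr1pos HFD hf3 or hfd2, or ATM HFD hfd1, hfd2, hf2 or hf3, at adjusted p between 0.0501 and 0.0823. Among libraries named hf it was -1.01 (adjusted p = 0.253), and among those named hfd it was -2.18 (adjusted p = 0.0280). That of ATM HFD over STD KC was lost without std1, std2, std3 or ATM HFD hf1, hf2 or hf3, at adjusted p between 0.0556 and 0.156, and with a term for the name prefix (0.122), with the HFD libraries named hfd alone (0.151) or without the filter on low counts (0.0543). Without HFD KC hf1, Ly6c2 passed as lower in ATM HFD than in HFD KC (-1.26, adjusted p = 0.0122), as it did among libraries named hfd (-1.63, adjusted p = 0.0270). Among those named hf it was at -0.75 (adjusted p = 0.384), and without HFD KC hf3 that difference was -0.48 (adjusted p = 0.350).

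Ly6c2 has a near-identical neighbour in the genome, Ly6c1, whose product carries the same surface antigen. The coding sequences of both genes (GENCODE M21, build GRCm38, chromosome 15) span 393 bases and differ at 9 of them, an identity of 97.7%. The stretch from base 6 to base 65, counted from the first base of the start codon, holds 6 of the 9 differences and is printed because it is where the genes can best be told apart; capitals mark the differing bases.
Ly6c2: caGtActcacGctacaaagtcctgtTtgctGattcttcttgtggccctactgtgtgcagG
Ly6c1: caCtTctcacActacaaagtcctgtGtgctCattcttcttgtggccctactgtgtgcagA
With Ly6c2 given first, the differences in this stretch are G8C, A10T, G16A, T31G, G36C and G65A. The longest run without a difference was 188 bases. Of the 773 windows of 50 bases along the Ly6c2 transcript, 255 (33.0%) also occurred in transcripts of other genes, 252 of them in Ly6c1. No window of the transcripts taken for Ly6e, Clec5a, Plac8 or Vcan was shared. How reads that match several genes were counted is not given in the sources used here, so the split between Ly6c2 and Ly6c1 is uncertain.

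Ly6c1 nevertheless had its own pattern. It stood at 3.51 CPM in ATM HFD hf3, 3.89 in hf1, 6.64 in hfd1, 6.70 in hf2 and 7.33 in hfd2, against 0.0622 to 0.268 CPM in the 4 Cx3cr1pos HFD libraries, 0.138 to 0.479 in HFD KC and 0.190 to 0.264 in STD KC. All 5 ATM HFD libraries lay above all 12 liver libraries, which held at most 17 counts each. The log2 fold change of Ly6c1 was 4.26 ± 0.37 for ATM HFD over HFD KC (adjusted p = 6.59e-08) and 4.87 ± 0.43 over Cx3cr1pos HFD (adjusted p = 1.50e-07), opposite in sign to that of Ly6c2 in both comparisons. The 11 fibroblast and stellate cell markers summed to 324 CPM in ATM HFD hfd2, 211 in hf2, 201 in hfd1, 155 in hf3 and 120 in hf1. Against HFD KC 7 of them were higher in ATM HFD and 3 lower. Endothelial markers, 10 genes, summed to 71.1 to 117 CPM in ATM HFD and to 605 to 3235 CPM in the liver libraries. Against HFD KC 1 of the 10 was higher in ATM HFD and 9 lower. The part of either cell type in the Ly6c1 counts was not tested.

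The start sites of the gene pair were set side by side because Ly6c2 was lower and Ly6c1 higher in ATM HFD than in Cx3cr1pos HFD. RefSeq windows (GRCm38.p6) were found for 4 of the 5 genes, Ly6c2, Clec5a, Plac8 and Vcan. They were searched on both strands for GAGGAAGT, a core bound by PU.1, a factor of the myeloid lineage, and for GAAANNGAA, a core of the interferon-stimulated response element. The 150 bases before a Ly6c2 start site (chr15:75111972-75112121, minus strand) and before a Ly6c1 start site (chr15:75048838-75048987, minus strand) are printed with the PU.1 core in capitals.
Ly6c2: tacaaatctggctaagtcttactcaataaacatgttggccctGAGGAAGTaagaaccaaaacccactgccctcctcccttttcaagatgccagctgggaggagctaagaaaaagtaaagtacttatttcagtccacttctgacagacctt
Ly6c1: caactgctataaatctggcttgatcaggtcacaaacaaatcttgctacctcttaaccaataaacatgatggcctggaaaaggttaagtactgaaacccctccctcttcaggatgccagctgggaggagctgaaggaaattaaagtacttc
In the printed Ly6c2 stretch the PU.1 core began 108 bases before the start site, and the core also occurred once downstream of that site. A further annotated Ly6c2 start site lies just downstream, and its window holds the same pair of matches. The window of the printed Ly6c1 start site held none, while that of another annotated Ly6c1 start site had the core 127 bases upstream. Neither motif occurred in the windows of Clec5a, Plac8 or Vcan. The PU.1 core was found in 3.20% and the interferon core in 8.56% of all 32851 windows of 300 bases, and a match is a run of letters, not a measured binding site.

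Markers of other cell types that carry LY6C or travel with it were read beside Ly6c2. The 8 plasmacytoid dendritic cell markers (such as Siglech, a lectin of these cells, and Ly6d, another LY6 protein) summed to 11.3 to 18.0 CPM in ATM HFD, 24.0 to 54.6 in Cx3cr1pos HFD, 14.2 to 55.0 in HFD KC and 6.24 to 10.2 in STD KC. In HFD KC this sum was highest in hf3 (55.0 CPM) and hfd1 (28.3), then hfd2 (23.5), hf2 (19.7) and hf1 (14.2), the order of Ly6c2 itself. There the 9 dendritic cell markers (40.3 to 157 CPM) and the 12 other LY6 family genes (237 to 848 CPM) summed in that order too. In Cx3cr1pos HFD the order differed, with the plasmacytoid sum highest in hf2 (54.6 CPM), where Ly6c2 was lowest (4.24 CPM). None of the 8 was at 0 in any liver library, and Klk1, a kallikrein gene on that list, was at 0 in ATM HFD hf1, hf3 and hfd1. Of the 8, 1 passed as higher in HFD KC than in STD KC, Ly6d at a log2 fold change of 2.44 ± 0.62 (adjusted p = 0.0400), a call lost without std1, std2, std3, HFD KC hf2 or HFD KC hf3 and with a term for the name prefix. By the same edgeR test 7 of the 8 had an unadjusted p under 0.05. Their median log2 fold change over STD KC was 1.67, against 0.02 over all genes tested. In ATM HFD against Cx3cr1pos HFD 4 were lower and 1 higher, and against HFD KC 5 were lower and 2 higher. The 14 T and NK cell markers summed to 132 to 234 CPM in ATM HFD, 134 to 324 in Cx3cr1pos HFD, 32.7 to 180 in HFD KC, again highest in hf3, and 42.2 to 46.2 in STD KC. Most of the ATM HFD sum was Il7r, the interleukin-7 receptor gene, at 137 CPM on average in ATM HFD against 25.9 CPM in Cx3cr1pos HFD and 5.50 CPM in HFD KC. The 9 B and plasma cell markers summed to 428 to 1814 CPM in ATM HFD, 932 to 2875 in Cx3cr1pos HFD, 507 to 1199 in HFD KC, highest in hf3, and 73.6 to 271 in STD KC. In HFD KC against STD KC 3 T and NK cell markers were higher and 1 lower, and 3 B and plasma cell markers higher and 0 lower. The median log2 fold changes of these lists, 2.03 and 2.83, were above that of the plasmacytoid list. By the edgeR test 10 of the 14 and 8 of the 9 had an unadjusted p under 0.05. The 3 T and NK cell markers were 0 without std2, 5 without HFD KC hf1 and 7 by DESeq2. The 3 B and plasma cell markers were 1 with RLE factors or total counts, 0 without std2, std3 or HFD KC hf3, 1 without HFD KC hf2 and 7 by DESeq2. In ATM HFD against Cx3cr1pos HFD 1 T and NK cell marker was higher and 8 lower, and 5 of the B and plasma cell markers were lower. Their part in the Ly6c2 counts was not tested.

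**Figure D2:**
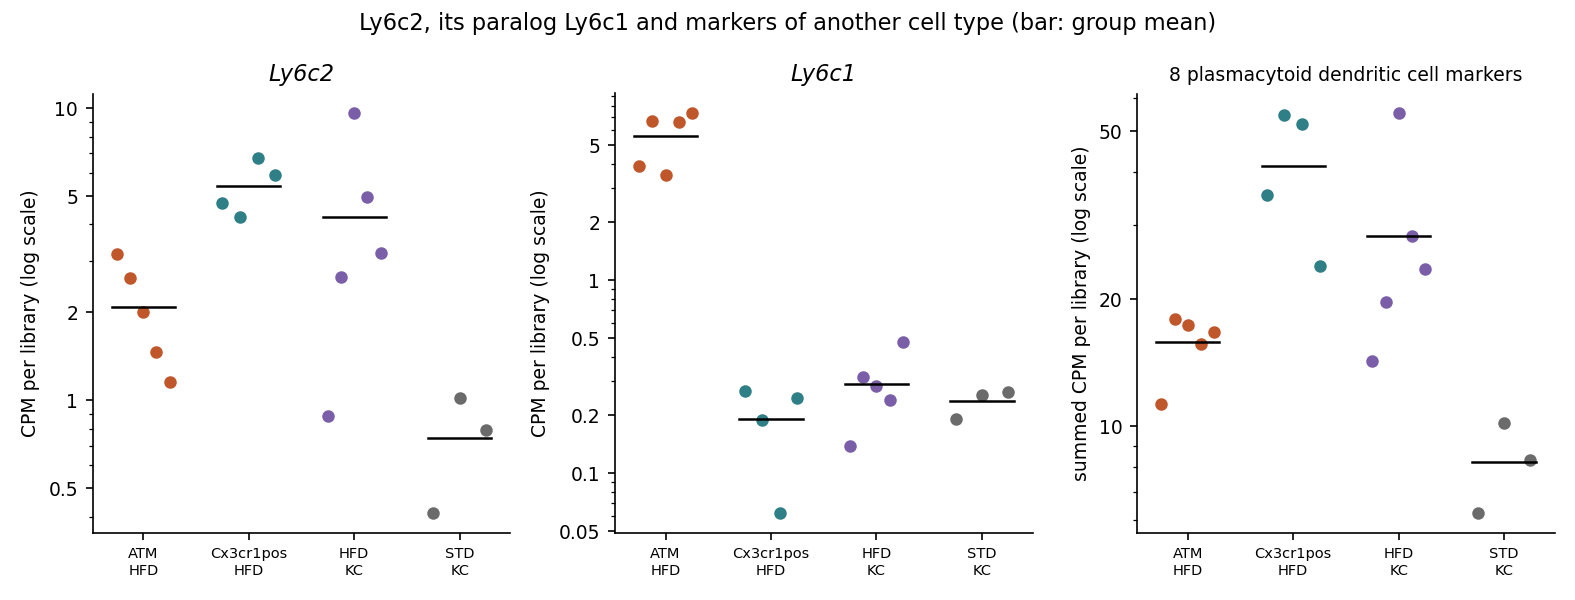
Ly6c2, its paralog Ly6c1 and the summed level of 8 plasmacytoid dendritic cell markers in each library, in CPM on log axes, with a bar at the group mean. Ly6c1 was highest in the 5 ATM HFD libraries, at 3.51 to 7.33 CPM, and Ly6c2 was not; HFD KC hf3 was the highest HFD KC library for both Ly6c2 (9.60 CPM) and the marker sum (55.0 CPM).

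Ly6e (ENSMUSG00000022587) encodes an interferon-induced member of the LY6 family that limits the entry of some viruses into cells. Per kilobase it was the most abundant of the 5 genes in each group. In ATM HFD it stood at 106 CPM in hf3, 127 in hf1, 174 in hfd2, 185 in hfd1 and 190.1 in hf2, against 3296 in Cx3cr1pos HFD hfd2, 3541 in hf1, 3920 in hf3 and 3933 in hf2. In HFD KC it stood at 3456 CPM in hf3, 3622 in hfd2, 3853 in hfd1, 4182 in hf1 and 4185 in hf2, against 4808, 4830 and 5017 CPM in STD KC std2, std1 and std3. All ATM HFD libraries lay far below all liver libraries. Ly6e was 24.6-fold lower in ATM HFD than in HFD KC (a log2 fold change of -4.62 ± 0.16, adjusted p = 1.14e-12) and 23.5-fold lower than in Cx3cr1pos HFD (-4.55 ± 0.16, adjusted p = 2.14e-12). Among the 15285 genes tested it ranked 15 and 13 by p in these comparisons. Among libraries named hf these log2 fold changes were -4.79 and -4.74, and among those named hfd -4.37 and -4.20. Cx3cr1pos HFD and HFD KC did not differ beyond their spread (-0.07 ± 0.15, 95% interval -0.38 to 0.24, adjusted p = 0.803). All 5 HFD KC libraries lay below all 3 STD KC libraries, by -0.34 ± 0.16 on the log2 scale, and this difference did not pass (adjusted p = 0.280).

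Ly6e was set beside 16 other interferon-stimulated genes. In ATM HFD all 16 were lower than in HFD KC, and all 16 lower than in Cx3cr1pos HFD, with median log2 fold changes of -2.32 and -2.33 against 0.0009 and -0.03 over all genes tested. These comparisons share the ATM HFD libraries. Irf7, the factor that amplifies the interferon response, averaged 57.1 CPM in ATM HFD, against 843 CPM in Cx3cr1pos HFD and 1223 CPM in HFD KC, and fell by 4.42 ± 0.21 on the log2 scale against HFD KC (adjusted p = 5.91e-11). Rtp4, Bst2 and Xaf1, which like Ly6e encode proteins with antiviral roles, were lower in ATM HFD than in HFD KC by log2 fold changes of -2.43 ± 0.14, -1.98 ± 0.12 and -1.67 ± 0.11 (adjusted p = 3.48e-10, 1.13e-09 and 1.39e-09). Of the 16, only Ifi44 had a larger fold change than Ly6e in either comparison (-6.17 ± 0.52 against HFD KC and -6.32 ± 0.53 against Cx3cr1pos HFD). Between HFD KC and STD KC 0 of the 16 passed by edgeR or by DESeq2, with 0 at an unadjusted p under 0.05. Between Cx3cr1pos HFD and HFD KC 1 passed by edgeR and 2 by DESeq2. By edgeR it was Ddx60, an RNA helicase of the antiviral response, as lower (-1.27 ± 0.27, adjusted p = 0.00399), and among libraries named hfd it was -0.51 (adjusted p = 0.171).

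Markers of other liver cells fell with Ly6e. The 10 endothelial markers summed to 71.1 to 117 CPM in ATM HFD, 605 to 816 in Cx3cr1pos HFD, 1298 to 3191 in HFD KC and 2392 to 3235 in STD KC. Of the 10, 9 were lower and 1 higher in ATM HFD than in HFD KC. The 11 hepatocyte markers summed to 1.83 to 2.99 CPM in ATM HFD, 54.7 to 105 in Cx3cr1pos HFD, 109 to 514 in HFD KC and 137 to 285 in STD KC, and all 11 were lower in ATM HFD than in HFD KC. In Cx3cr1pos HFD 5 endothelial markers were lower and 0 higher than in HFD KC, and 3 to 9 were lower when single libraries were left out. Of the hepatocyte markers 6 were lower and 0 higher there, and 5 to 7 were lower without single libraries. Ly6e was at -0.07 on the log2 scale in that comparison and did not pass. The part of these markers in the Ly6e counts was not tested.

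**Figure D3:**
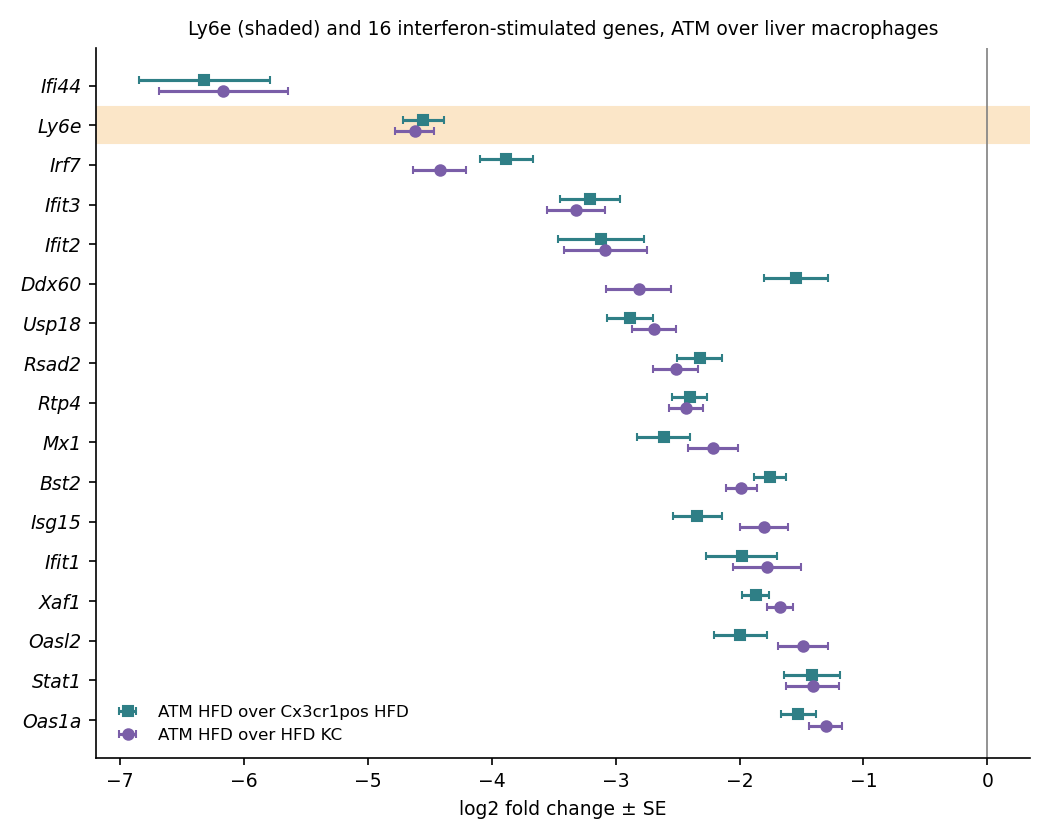
Log2 fold change with its standard error of Ly6e (shaded) and of 16 interferon-stimulated genes, for ATM HFD over Cx3cr1pos HFD (squares) and ATM HFD over HFD KC (circles). Every value lies below 0, and Ly6e (-4.55 and -4.62) is exceeded only by Ifi44.

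Clec5a (ENSMUSG00000029915) encodes a myeloid lectin receptor, also known as MDL-1. It stood at 14.1 CPM in ATM HFD hf3, 19.7 in hfd2, 22.7 in hfd1, 26.0 in hf2 and 26.7 in hf1, against 39.5 in Cx3cr1pos HFD hfd2, 40.9 in hf2, 50.9 in hf3 and 57.9 in hf1. In HFD KC it stood at 7.45 CPM in hfd1, 8.38 in hf1, 8.91 in hf2, 10.8 in hfd2 and 11.0 in hf3, against 3.49, 3.64 and 4.90 CPM in STD KC std3, std1 and std2. No 2 of the 4 groups overlapped in Clec5a. The share of all genes without overlap between any 2 groups was not counted. Its order was Cx3cr1pos HFD, ATM HFD, HFD KC and STD KC, and each pair of neighbours differed beyond the spread. Clec5a was 5.09-fold higher in Cx3cr1pos HFD than in HFD KC (a log2 fold change of 2.35 ± 0.19, adjusted p = 1.69e-06), the 6th smallest p of all genes tested. It was 2.32-fold higher in HFD KC than in STD KC (1.21 ± 0.22, adjusted p = 0.00508) and 2.35-fold higher in ATM HFD than in HFD KC (1.23 ± 0.18, adjusted p = 2.10e-05). Among libraries named hf, and among those named hfd, these log2 fold changes were 2.41 and 2.12, 1.23 and 1.18, and 1.25 and 1.22. In ATM HFD it was lower than in Cx3cr1pos HFD, at -1.11 ± 0.18 (adjusted p = 0.000135), and among libraries named hfd alone that difference was -0.90 (adjusted p = 0.0672), with 1 Cx3cr1pos HFD library.

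Genes of CLEC5A signalling and of related receptors were read beside Clec5a. Tyrobp, which encodes DAP12, averaged 1350 ± 104 CPM in ATM HFD, 1329 ± 115 in Cx3cr1pos HFD, 1578 ± 218 in HFD KC and 1547 ± 102 in STD KC (SD), and it passed in none of the 4 comparisons by edgeR, with adjusted p between 0.0771 and 0.940. Syk, the kinase downstream of DAP12, stood 0.42 ± 0.13 higher on the log2 scale in Cx3cr1pos HFD than in HFD KC (adjusted p = 0.0468), and this call was lost with RLE factors (0.0597), total counts (0.0814) and most single libraries left out. Of the 11 genes listed as DAP12 partners and related receptors, 5 were higher and 0 lower in Cx3cr1pos HFD than in HFD KC (median log2 fold change 0.55 against 0.002 over all genes), and 4 were higher and 0 lower in HFD KC than in STD KC (0.68 against 0.02). The count of 5 was 3 without Cx3cr1pos HFD hf3 and 0 with the libraries named hfd alone, and the count of 4 was 1 without std1 and 0 without std2 or std3. Trem2, a lipid-sensing receptor that also couples to DAP12, averaged 571 CPM in Cx3cr1pos HFD, 197 in HFD KC and 69.0 in STD KC. Sirpb1a, a signal-regulatory receptor of that kind, averaged 86.5, 14.8 and 4.71 CPM in these groups, and Clec4e, the lectin Mincle, 12.6, 2.22 and 0.460 CPM. All 3 passed as higher in Cx3cr1pos HFD than in HFD KC (adjusted p = 0.00133, 8.17e-06 and 0.000557) and as higher in HFD KC than in STD KC (adjusted p = 0.0153, 0.00545 and 0.0319). Over STD KC all 3 calls were lost without std2 (adjusted p = 0.0875, 0.0560 and 0.191) and without std3 (0.106, 0.0562 and 0.118), and those of Trem2 and Clec4e without std1 (0.0582 and 0.129). That of Clec4e was also lost without HFD KC hfd1, hfd2 or hf3. Over HFD KC all 3 were lost with the libraries named hfd alone (adjusted p = 0.221, 0.123 and 0.0544). In ATM HFD 3 of the 11 were higher and 3 lower than in HFD KC, and 3 higher and 4 lower than in Cx3cr1pos HFD.

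Plac8 (ENSMUSG00000029322) encodes a small cysteine-rich protein also called onzin, found in myeloid cells and in plasmacytoid dendritic cells. It stood at 2.44 CPM in ATM HFD hfd2, 4.09 in hf3, 4.16 in hfd1, 6.61 in hf2 and 9.38 in hf1, against 58.0 in Cx3cr1pos HFD hf2, 64.6 in hf1, 73.1 in hfd2 and 73.4 in hf3. In HFD KC it stood at 45.3 CPM in hf2, 60.7 in hfd2, 74.0 in hf3, 83.4 in hfd1 and 148 in hf1, against 83.7, 99.7 and 108 CPM in STD KC std2, std3 and std1. The liver groups ran into each other, apart from Cx3cr1pos HFD and STD KC, and ATM HFD lay below all of them. Plac8 was 15.4-fold lower in ATM HFD than in HFD KC (a log2 fold change of -3.95 ± 0.35, adjusted p = 6.95e-08) and 12.6-fold lower than in Cx3cr1pos HFD (-3.65 ± 0.35, adjusted p = 3.81e-07). Among libraries named hf these log2 fold changes were -3.74 and -3.28, and among those named hfd -4.45 and -4.48. Within the liver, neighbouring groups did not differ beyond their spread. HFD KC against STD KC was at -0.24 ± 0.35 (95% interval -0.97 to 0.49, adjusted p = 0.802). Cx3cr1pos HFD against HFD KC was at -0.29 ± 0.32 (95% interval -0.97 to 0.39, adjusted p = 0.608), and at 0.01 without HFD KC hf1, the library with the highest Plac8. Cx3cr1pos HFD lay below STD KC in all libraries without passing (-0.53 ± 0.36, adjusted p = 0.310).

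Vcan (ENSMUSG00000021614), the versican gene, was per kilobase the rarest of the 5 in each group. It was counted 7 times in ATM HFD hfd2, 24 in hf2, 27 in hf3, 49 in hfd1 and 247 in hf1, which is 0.219, 0.684, 0.677, 1.84 and 8.07 CPM. The Cx3cr1pos HFD libraries held 12, 17, 20 and 25 counts (0.324 CPM in hf2, 0.593 in hfd2, 0.622 in hf3 and 0.956 in hf1). The HFD KC libraries held 6 to 18 counts (0.179 to 0.498 CPM), against 0, 2 and 5 counts in STD KC std1, std3 and std2 (0 to 0.159 CPM). A limit of 3 counts corresponds to 0.0752 to 0.115 CPM in these libraries, so the STD KC values are at about the limit of detection. Most Vcan counts of ATM HFD came from hf1, and the lowest ATM HFD library lay within the range of HFD KC.

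Vcan was higher in ATM HFD than in HFD KC, at a log2 fold change of 2.86 ± 0.79 (adjusted p = 0.00645), and without ATM HFD hf1 the difference was 1.46 and did not pass (adjusted p = 0.0554). Among libraries named hfd it was 1.55 (adjusted p = 0.345), and among those named hf, which include hf1, it was 3.43 (adjusted p = 0.0190). Against Cx3cr1pos HFD it was at 1.88 ± 0.82 (adjusted p = 0.0791), 0.50 without ATM HFD hf1 (adjusted p = 0.568) and 2.22 without ATM HFD hfd2, where it passed (adjusted p = 0.0280). The neighbours Cx3cr1pos HFD and HFD KC did not differ beyond their spread (0.98 ± 0.83, adjusted p = 0.485). All HFD KC libraries lay above all STD KC libraries without passing (2.06 ± 1.13, adjusted p = 0.377). Vcan was also higher in ATM HFD than in STD KC (4.92 ± 1.16, adjusted p = 0.00221), and its difference between Cx3cr1pos HFD and STD KC did not pass (3.03 ± 1.15, adjusted p = 0.0658).

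ATM HFD hf1 was the highest of the 5 ATM HFD libraries for 4 of the 5 genes (Ly6c2, Plac8, Vcan and Clec5a) and for 16 of 23 other classical monocyte genes, as it was for 20.1% of all genes tested. In this library the 12 neutrophil markers summed to 116 CPM, against 32.4 to 53.7 CPM in the other ATM HFD libraries, 101 to 120 in Cx3cr1pos HFD, 82.2 to 160 in HFD KC and 113 to 134 in STD KC. S100a8, S100a9 and Csf3r are on this list and among the other classical monocyte genes, so the counts for hf1 are not independent. Of the 12 markers 9 were tested, 3 were higher and 1 lower in ATM HFD than in either HFD KC or Cx3cr1pos HFD, and 1 to 3 were at 0 in each ATM HFD library. Against HFD KC the 3 higher were S100a8, S100a9 and Cxcr2. Without ATM HFD hf1 the 3 higher were 0 against HFD KC and 1 against Cx3cr1pos HFD. The 9 dendritic cell markers summed to 521 CPM in ATM HFD hf1, against 265 to 363 in the other ATM HFD libraries, and to at most 165 CPM in the liver libraries. Clec10a, a lectin that macrophages express as well, gave most of this sum, at 322 CPM on average in ATM HFD against 18.3 CPM in Cx3cr1pos HFD and 16.2 CPM in HFD KC. Of the 9, 2 were higher and 5 lower in ATM HFD than in HFD KC, and 1 higher and 4 lower than in Cx3cr1pos HFD. Their part in the Vcan counts was not tested.

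The genes that make or bind the matrix around versican were read as a group of 14, of which 11 were tested. In ATM HFD 4 were higher and 3 lower than in HFD KC, and 5 higher and 0 lower than in Cx3cr1pos HFD. Tnfaip6, whose product links hyaluronan chains, averaged 4.01 CPM in ATM HFD, against 0.124 in Cx3cr1pos HFD and 0.163 in HFD KC, and rose by 4.56 ± 0.51 on the log2 scale against HFD KC (adjusted p = 1.24e-06). Adamts5, a protease that cleaves versican, averaged 3.26 CPM in ATM HFD, against 0.219 and 0.277 CPM, and rose by 3.52 ± 0.65 against HFD KC (adjusted p = 0.000236). Cd44, the hyaluronan receptor, was lower in ATM HFD than in HFD KC (764 against 1270 CPM, -0.73 ± 0.11, adjusted p = 3.20e-05) and lower in Cx3cr1pos HFD than in HFD KC (915 against 1270 CPM, -0.47 ± 0.12, adjusted p = 0.0119; among libraries named hfd -0.45, adjusted p = 0.451). Fibroblasts also make this matrix. The 11 fibroblast and stellate cell markers summed to 120 to 324 CPM in ATM HFD, 24.5 to 40.6 in Cx3cr1pos HFD, 32.1 to 68.4 in HFD KC and 47.9 to 50.3 in STD KC, with 7 higher and 3 lower in ATM HFD than in HFD KC. Their part in these counts was not tested.

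Counted over the 5 genes, 4 passed in ATM HFD against HFD KC, Vcan and Clec5a as higher and Ly6e and Plac8 as lower, where 49.0% of all genes passed, 23.8% as higher and 25.2% as lower. Against Cx3cr1pos HFD 4 passed in ATM HFD, all as lower (Ly6c2, Ly6e, Plac8 and Clec5a), where 39.7% of all genes passed, 18.9% as higher and 20.8% as lower. In Cx3cr1pos HFD against HFD KC 1 passed, Clec5a as higher, where 13.3% of all genes passed, 5.85% as higher and 7.48% as lower. In HFD KC against STD KC 2 passed, Ly6c2 and Clec5a as higher, where 3.40% of all genes passed, 2.27% as higher and 1.13% as lower. Against STD KC 2 passed in Cx3cr1pos HFD, Ly6c2 and Clec5a as higher, where 24.1% of all genes passed, 11.9% as higher and 12.1% as lower. All 5 passed in ATM HFD against STD KC, 3 as higher and 2 as lower, where 47.8% of all genes passed, 23.7% as higher and 24.1% as lower. Groups that did not overlap were also counted. In ATM HFD against HFD KC 1 of the 5 genes lay wholly above and 2 wholly below, where 16.4% and 17.6% of all genes did. In ATM HFD against Cx3cr1pos HFD 4 lay wholly below and 0 above (16.2% and 15.5% of all genes), and in Cx3cr1pos HFD against HFD KC 1 lay above and 0 below (5.89% and 6.84%). In HFD KC against STD KC 2 lay above and 1 below (7.45% and 6.59%). Against STD KC 3 lay above and 2 below both in Cx3cr1pos HFD (17.7% and 19.0%) and in ATM HFD (23.8% and 24.7%). These comparisons share libraries, and a share near the background says nothing about the 5 genes. The count for HFD KC against STD KC was 1 without any STD KC library, when 125 to 291 genes passed in all, against 519 with all 3.

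**Figure D4:**
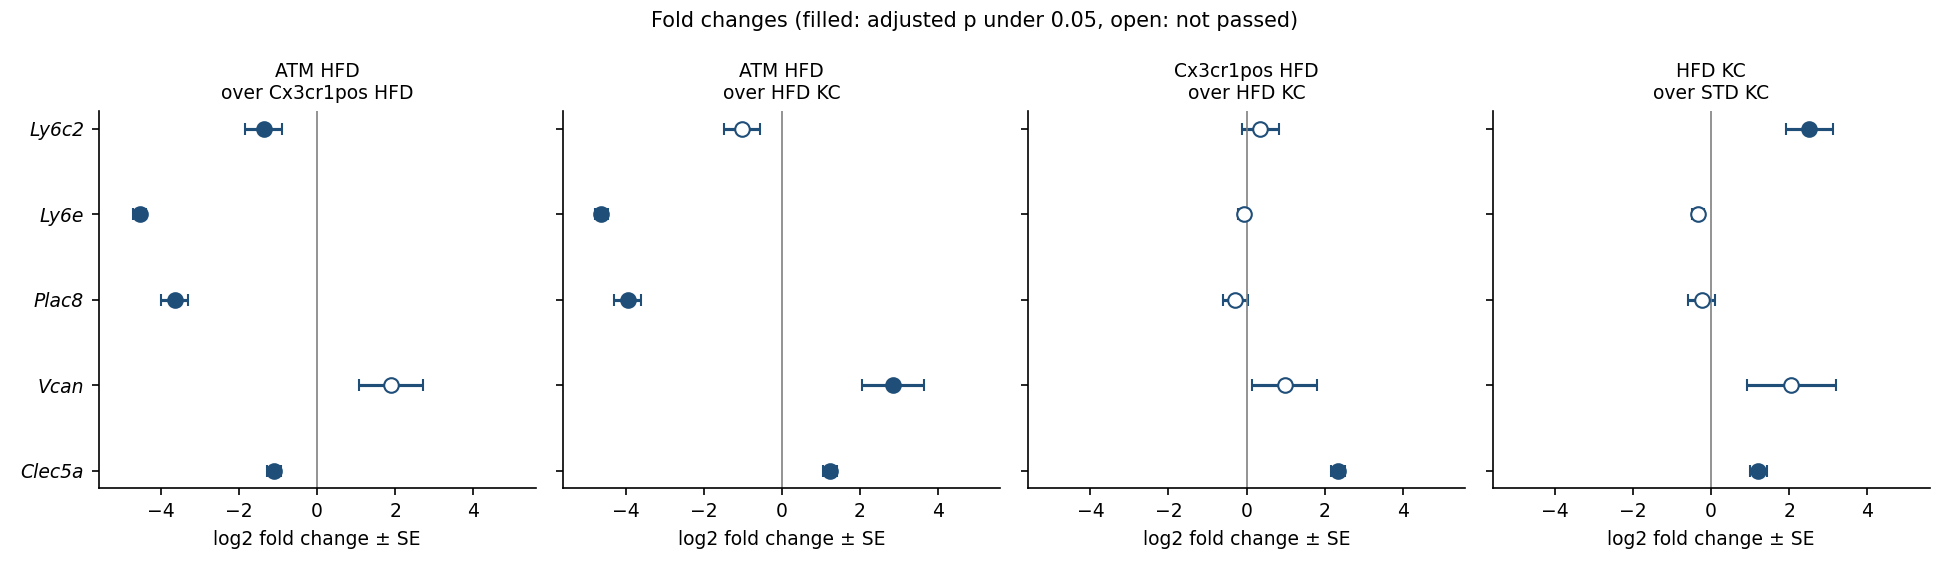
Log2 fold change with its standard error of the 5 genes in the 4 comparisons, with filled symbols for an adjusted p under 0.05 and open symbols for genes that did not pass. Ly6e and Plac8 lie near 0 between the liver groups and far below 0 in ATM HFD, while Clec5a lies above 0 in every comparison except ATM HFD over Cx3cr1pos HFD (-1.11).

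The 23 other classical monocyte genes were just as mixed. In ATM HFD 12 were higher and 7 lower than in HFD KC (median log2 fold change 0.65 against 0.0009 over all genes). Against Cx3cr1pos HFD 11 were higher and 7 lower in ATM HFD (median 0.39 against -0.03), and without ATM HFD hf1 these counts were 7 and 8. By adjusted p the first of those higher in ATM HFD than in HFD KC was S100a4, a calcium-binding protein of motile cells, at 48.8 CPM in ATM HFD against 0.793 CPM in HFD KC (5.93 ± 0.27, adjusted p = 3.62e-11). Fn1, which encodes fibronectin, averaged 640 against 10.9 CPM (5.88 ± 0.41, adjusted p = 4.44e-09). F13a1, a coagulation factor subunit, had the largest fold change of the list in this comparison, at 783 against 12.3 CPM (5.99 on the log2 scale, adjusted p = 1.72e-07). Among those lower was Msrb1, a methionine sulfoxide reductase, at 28.3 against 110.1 CPM (-1.96 ± 0.13, adjusted p = 2.18e-09).

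In Cx3cr1pos HFD 6 of the 23 were higher and 2 lower than in HFD KC (median 0.61 against 0.002). Ccr2, the receptor through which classical monocytes enter tissue, averaged 482 CPM in Cx3cr1pos HFD against 30.1 CPM in HFD KC (4.00 ± 0.36, adjusted p = 2.95e-06), so the receptor gene differed where Ly6c2 did not pass. Ms4a4c, a tetraspanning membrane protein of monocytes, averaged 112 against 26.1 CPM (2.10 ± 0.24, adjusted p = 1.96e-05). Ifitm3 and Ifitm6, genes of interferon-induced membrane proteins, were the 2 that were lower. With the libraries named hfd alone these counts were 4 and 0. In HFD KC 5 were higher and 0 lower than in STD KC (median 0.70 against 0.02). They were Ccr2, Hp, Gda, S100a4 and S100a6. Gda, a guanine deaminase, averaged 14.8 CPM in HFD KC against 1.19 CPM in STD KC (3.64 ± 0.83, adjusted p = 0.0220), and S100a6, a calcium-binding protein, 5.69 against 1.58 CPM (1.85 ± 0.34, adjusted p = 0.00545). Without std1, std2 or std3 the 5 were 2, 2 and 1, with Gda lost each time (adjusted p = 0.0873, 0.135 and 0.127), and by DESeq2 they were 9.

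**Figure D5:**
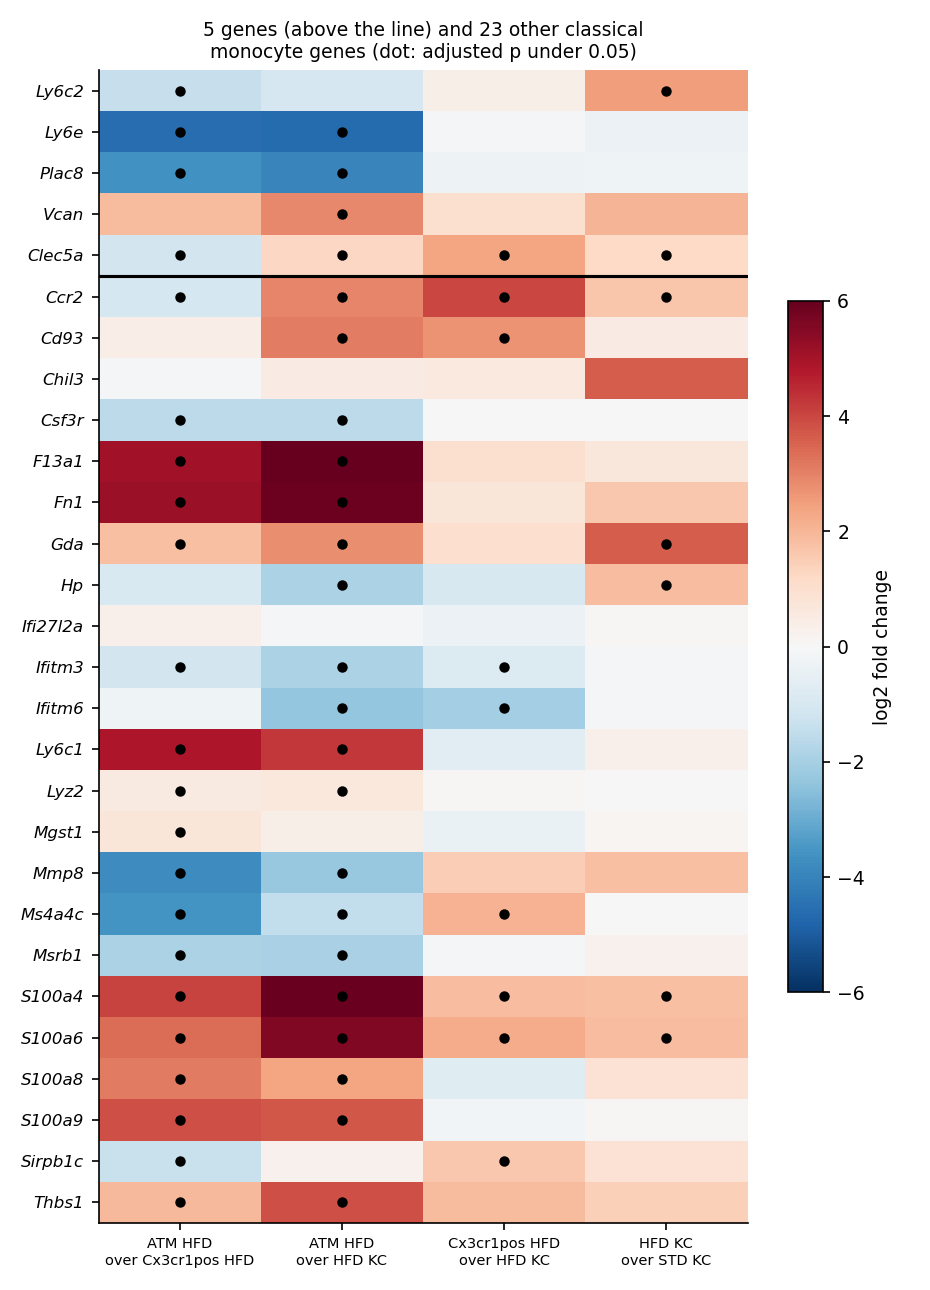
Log2 fold changes of the 5 genes (above the line) and of 23 other classical monocyte genes in the 4 comparisons, in red where higher and blue where lower in the group named first, with colours saturating at 6 in either direction; a dot marks an adjusted p under 0.05. Rows of both colours stand in each ATM HFD column, where 12 of the 23 were higher and 7 lower than in HFD KC.

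The other LY6 family genes divided as well. Of the 13 listed, 12 were in the table and 9 were tested. In ATM HFD 3 were higher and 4 lower than in HFD KC, and 1 higher and 4 lower than in Cx3cr1pos HFD. Ly6a, which encodes the stem cell antigen SCA-1 and is interferon-inducible, averaged 12.8 CPM in ATM HFD against 64.0 CPM in HFD KC (-2.32 ± 0.33, adjusted p = 1.68e-05). Gpihbp1, the anchor of lipoprotein lipase on capillary endothelium, averaged 9.08 against 231 CPM (-4.67 ± 0.51, adjusted p = 1.03e-06). Plaur, the urokinase receptor, ran the other way, at 283 CPM in ATM HFD against 127 CPM in HFD KC (1.16 ± 0.24, adjusted p = 0.000737), and was also higher in HFD KC than in STD KC (127 against 41.2 CPM, 1.63 ± 0.29, adjusted p = 0.00524), a call lost without std2 (1.52, adjusted p = 0.0565). Ly6i was higher in Cx3cr1pos HFD than in HFD KC (4.20 against 0.469 CPM, 3.15 ± 0.75, adjusted p = 0.00941), and no LY6 gene of the list passed there without Cx3cr1pos HFD hf3.

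Likeness between gene profiles was measured as the root mean square difference of log2 CPM over the 17 libraries, after centring each gene. Among the 5 genes Ly6e and Plac8 were closest (0.64) and Ly6e and Vcan farthest apart (3.31). The nearest protein-coding genes to Ly6e were Abi3 (0.27), Ifi213 (0.30) and Id3 (0.32), where the median over all genes was 2.19. Id3, an inhibitor of DNA binding needed by Kupffer cells, averaged 46.9 CPM in ATM HFD, 1066 in Cx3cr1pos HFD, 1189 in HFD KC and 1720 in STD KC. Nearest to Plac8 were Clec4n (0.46), the lectin Dectin-2, Tmem268 (0.47) and Camkk1 (0.50). Nearest to Clec5a were Fam134b (0.42), Matn2 (0.48) and Il21r (0.51), the last of them the interleukin-21 receptor gene at 9.95 CPM in ATM HFD, 35.5 in Cx3cr1pos HFD, 5.65 in HFD KC and 2.21 in STD KC. Nearest to Ly6c2 were Pkp3 (0.57), P2ry10 (0.58) and Tnfrsf18 (0.59), all at or below 6.89 CPM in every group mean. Vcan had no close neighbour, its nearest being Dmkn (0.81), Tarm1 (0.84) and Clec4d (0.86).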

How the data were processed

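RNA of sorted macrophages was amplified with a SMARTer kit and read as 50-base single-end reads, per the labels' protocols. The submitters' processing notes name bcl2fastq, STAR 2.0.4b, Subread and featureCounts 1.4.5. The build, the annotation and the treatment of multiply matching reads are not given in the sources used here. The deposited values are whole gene counts made by the authors, in 40824 entries, of which 276 repeat an identifier with identical counts, leaving 40548 genes. The molecular identifiers named in the protocol are not said to have been used, so floors cover counting error only.

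Groups came from the source label of each sample. Counts were filtered with filterByExpr and scaled with TMM. All 17 libraries entered a quasi-likelihood fit in edgeR 4.0.16 (R 4.3.3), in which each group had its own coefficient, with two-sided F-tests, Benjamini-Hochberg adjustment over 15285 genes and a threshold of 0.05. The common biological coefficient of variation was 0.297, and log2 CPM used a prior count of 2. The script was tested on simulated data. The 5 genes and the gene lists were chosen with earlier results of these data known. A further gene of these lists is not reported here. Genes named from a list are the 4 with the smallest adjusted p in a comparison, and others (F13a1, Il7r, Clec10a, Ifi44, Syk, Hp, Ifitm3 and Ifitm6 among them) were chosen after their values were seen.

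Same-named HFD KC and Cx3cr1pos HFD libraries deviated together (r = 0.174, 0.166, 0.233 and 0.301 across genes for hf1, hf2, hf3 and hfd2) and were taken as pairs from the data, not from a label. The differently named libraries Cx3cr1pos HFD hfd2 and HFD KC hfd1 reached an r of 0.1595. The main fit did not use this pairing, so p-values given in the Results are unpaired, and the replicate block served only as an alternative. Every pair of libraries of 1 group differed beyond sampling noise. DESeq2 1.42.0, RLE factors and total counts served as alternatives, as did fits with no filter, with a term for the name prefix, with a replicate block, with only 2 groups, with only hf or hfd libraries and without each library in turn.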

Additional observations from a re-analysis of the deposited data

Results flagged for a closer look

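Vcan in ATM HFD hf1 stood apart from its group, at 8.07 CPM against 0.219 to 1.84 CPM in the other 4 libraries. Its distance to the next library took 0.794 of the range of the group. It was the 1 case among the 15 combinations of gene and group with 4 or more libraries that were examined in this way. The rule was applied to CPM without logs. Chance marks about 1 in 20 only where values are normally distributed, which CPM at low counts need not be.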

How the results depend on the processing

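Across the alternatives the calls of Ly6e and Plac8 in ATM HFD against both liver groups and of Clec5a in Cx3cr1pos HFD against HFD KC were kept. In HFD KC against STD KC the number of the 5 genes that passed was 1 in place of 2 with only those groups in the fit, and 1 with only the libraries named hf, and it lay between 1 and 2 when single libraries were left out. The cause was not tested, beyond the fewer libraries in these fits. The other counts lay between 3 and 5 in ATM HFD against either liver group, and at 1 in Cx3cr1pos HFD against HFD KC. In Cx3cr1pos HFD against STD KC 2 passed, 4 by DESeq2 and 5 with only those groups. The sign of the Plac8 difference between Cx3cr1pos HFD and HFD KC, which did not pass (-0.29), turned with only the libraries named hfd (0.0292, with 1 Cx3cr1pos HFD library assumed to vary like the other groups) and without HFD KC hf1 (0.0068), the range without single libraries being -0.453 to 0.0068. The number of genes passing in HFD KC against STD KC was 519, but 1156 by DESeq2, 231 with only those groups and 125 to 545 without single libraries. With only the hfd libraries it was 52 in place of 2037 in Cx3cr1pos HFD against HFD KC, 4747 in place of 7496 in ATM HFD against HFD KC and 2151 in place of 6073 in ATM HFD against Cx3cr1pos HFD. Without Cx3cr1pos HFD hf3 it was 1327 in Cx3cr1pos HFD against HFD KC. In Cx3cr1pos HFD against STD KC it was 3677, 1780 with only the hfd libraries and 2225 without std2. DESeq2 also passed Vcan as higher in ATM HFD than in Cx3cr1pos HFD (1.93, adjusted p = 0.0384).

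The replicate block over the HFD libraries changed 1 call of the 5 genes, Ly6c2 in ATM HFD against Cx3cr1pos HFD, at -1.29 (adjusted p = 0.0686). It changed no call of the 5 genes in Cx3cr1pos HFD against HFD KC, where the call of Syk was lost (adjusted p = 0.0705). Whether same-named ATM HFD and liver libraries share an animal is not stated, and they were not taken as pairs, since not every same-named pair deviated together (r = -0.0196 to 0.186 with HFD KC and 0.0465 to 0.204 with Cx3cr1pos HFD). Depth limits Vcan and Ly6c2, at 0 to 247 and 13 to 375 counts per library.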
